A study of Homo sapiens with 4 samples.

Results

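The subject is the intracellular transducers of the TGF-beta superfamily, the receptor-regulated SMADs and their common partner SMAD4, in SKOV3, a widely used cell line derived from a human ovarian carcinoma. The members were the 6 genes SMAD1, SMAD5, SMAD9, SMAD2, SMAD3 and SMAD4, of 19775 genes with a probe set of their own on the array. They were taken by gene name, with earlier results of these data known. All 25 probe sets annotated to exactly 1 of them were used, of 54613 probe sets other than controls. A probe set is a group of short probes for 1 transcript region, and its signal here is a linear MAS5 intensity. One group was SKOV3 treated with rhSTIP1, read as recombinant human STIP1, a cochaperone of HSP70 and HSP90 that cells also secrete (2 arrays). The other was SKOV3 control cells, without rhSTIP1 (2 arrays). The sources used here give no dose or duration, no culture conditions and nothing on separate cultures, so the spread behind each p-value is that between 2 arrays of a kind and may be technical.

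Ligands of the superfamily bring type I and type II receptor kinases together, and the type I receptor then phosphorylates receptor-regulated SMADs at their C-terminal end. SMAD1, SMAD5 and SMAD9 are the substrates of BMP receptors, whereas SMAD2 and SMAD3 are those of activin and TGF-beta receptors. The phosphorylated proteins bind SMAD4, enter the nucleus and regulate target genes, among them the inhibitory SMAD6 and SMAD7. Phosphorylation and movement to the nucleus are not visible to an expression array, so the values concern transcript signals only.

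The label fits the line: all 10 epithelial and SKOV3 markers, among them KRT8, KRT18, PAX8 and the amplified receptor gene ERBB2, were above the signal level at which genes were tested, with summed signals of 55921 and 60274 in rhSTIP1 arrays and 53165 and 53043 in control arrays. None of the 6 lymphocyte and macrophage markers with a probe set of their own reached that level, and their summed signals were 146 and 297 with rhSTIP1 and 195 and 187 in controls. The fibroblast markers summed to 565 and 364 with rhSTIP1 and to 603 and 327 in controls, with 3 of 6 above the level, and 1 of 5 endothelial markers, PECAM1, was above it. Sums hide differences between arrays of a group. The epithelial marker CDH1 had 521 and 2110 with rhSTIP1 and 299 and 1355 in controls. KRT19, among others, ran the other way, at 4534 and 3059 with rhSTIP1 and 6515 and 3123 in controls. The ratio of the 3′ to the 5′ probe set of ACTB, which rises with RNA degradation, was 8.79 in rhSTIP1 array 2 and between 2.45 and 2.74 on the other arrays, while that of GAPDH lay between 0.987 and 1.32 on all 4. The part of this ratio in the results was not tested.

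Promoter sequences are shown for the member whose single tested probe set was higher in both rhSTIP1 arrays, SMAD9, for SMAD5, another substrate of the same receptors whose groups overlapped on every tested probe set, and for SMAD4, whose probe sets disagreed. Each runs 5′ to 3′ from 250 bases before to 50 bases after the annotated start, from RefSeq on GRCh38.p14, and lies at chr13:36920189-36920488 on the minus strand for SMAD9, chr5:136132595-136132894 on the plus strand for SMAD5 and chr18:51029963-51030262 on the plus strand for SMAD4. Capitals mark GGCGCC, a GC-rich element bound by BMP-regulated SMADs, and CAGAC, the SMAD box, each searched on both strands.
SMAD9: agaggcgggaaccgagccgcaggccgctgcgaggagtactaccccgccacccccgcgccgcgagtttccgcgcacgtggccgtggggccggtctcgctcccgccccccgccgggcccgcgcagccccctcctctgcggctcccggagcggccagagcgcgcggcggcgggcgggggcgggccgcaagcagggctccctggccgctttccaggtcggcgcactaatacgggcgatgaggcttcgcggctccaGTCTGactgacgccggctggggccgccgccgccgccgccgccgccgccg
SMAD5: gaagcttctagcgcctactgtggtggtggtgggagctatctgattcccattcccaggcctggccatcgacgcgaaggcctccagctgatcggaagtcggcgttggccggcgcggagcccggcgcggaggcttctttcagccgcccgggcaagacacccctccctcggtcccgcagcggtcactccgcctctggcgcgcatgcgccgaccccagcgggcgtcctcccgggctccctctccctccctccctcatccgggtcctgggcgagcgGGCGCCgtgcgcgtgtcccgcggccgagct
SMAD4: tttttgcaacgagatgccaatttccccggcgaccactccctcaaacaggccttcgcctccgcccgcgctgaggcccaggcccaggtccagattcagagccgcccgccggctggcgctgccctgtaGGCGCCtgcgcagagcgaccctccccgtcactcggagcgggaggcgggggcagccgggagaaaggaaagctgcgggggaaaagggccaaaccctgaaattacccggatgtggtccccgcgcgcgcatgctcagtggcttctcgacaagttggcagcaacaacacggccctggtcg

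Over the 15 promoter windows that RefSeq gives for the 6 genes, GGCGCC occurred in 7 and CAGAC in 5. The same elements were in 19.2% and 45.3% of all 35116 windows of this length. GTCTAGAC, a palindromic SMAD-binding element, was in 0 of the 15 windows and in 0.202% of all windows. The SMAD9 window held 1 CAGAC match, on the reverse strand, and no GGCGCC, while the SMAD5 and SMAD4 windows each held 1 GGCGCC and no CAGAC. These are letter matches, not binding sites. G and C made up 42.0% to 84.0% of the 15 windows and 66.7% to 79.7% of the 3 shown.

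None of the 6 genes passed the test of rhSTIP1 against control cells, and the differences were small on most of their probe sets. Each gene was first read from its brightest probe set, by the mean of all arrays, and log2(signal + 16) was compared with limma over 12296 genes. The log2 fold changes of the members ran from −0.36 for SMAD4 to 0.26 for SMAD9, 3 above 0 and 3 below, with a median of 0.03 against 0.02 over all genes tested. Their median absolute log2 fold change was 0.15, and over all genes tested it was 0.17. At a Benjamini-Hochberg adjusted p of 0.05, 0 of 6 members and 0 of 12296 genes (0%) were called, and 0 of 6 had an unadjusted p under 0.05, against 452 genes (3.68%). For 1 of 6 members, SMAD9, no array of one group lay within the range of the other, against 28.9% of all genes (14% higher and 14.9% lower). Without rhSTIP1 array 2, the array with the high ACTB ratio, fewer values needed to be apart, and the arrays did not overlap for 4 of 6 members and 64.9% of all genes.

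All probe sets of the members were then set side by side, 21 of which reached a mean signal of 69.4, the median over probe sets, and were tested among 27307. Of these 21, 16 had a log2 fold change below 0 and 5 above, with a median of −0.10 against 0.00 over all probe sets tested, of which 49.8% were below 0. Under median centring 11 of the 21 were below 0 and 10 above, with 42.3% of all probe sets below 0, and with 1 array left out the number below 0 ran from 9, without rhSTIP1 array 1, to 17, without control array 1. The groups did not overlap for 4 of 21, 2 higher (SMAD9 227719_at and SMAD4 235725_at) and 2 lower (SMAD2 203076_s_at and 203077_s_at) with rhSTIP1, against 28.2% of all probe sets (12.8% higher and 15.4% lower). Probe sets of 1 gene measure the same RNA and are not independent. Limma called 0 of the 21 and 0 of 27307 (0%), and 0 of the 21 had an unadjusted p under 0.05 against 878 probe sets (3.22%); the smallest unadjusted p among them was 0.167, for SMAD4 235725_at. Without rhSTIP1 array 2 the groups did not overlap for 14 of the 21, against 63.7% of all probe sets. The 4 probe sets below the level, 1 each of SMAD9, SMAD2, SMAD3 and SMAD4, were described without a test.

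**Figure D1:**
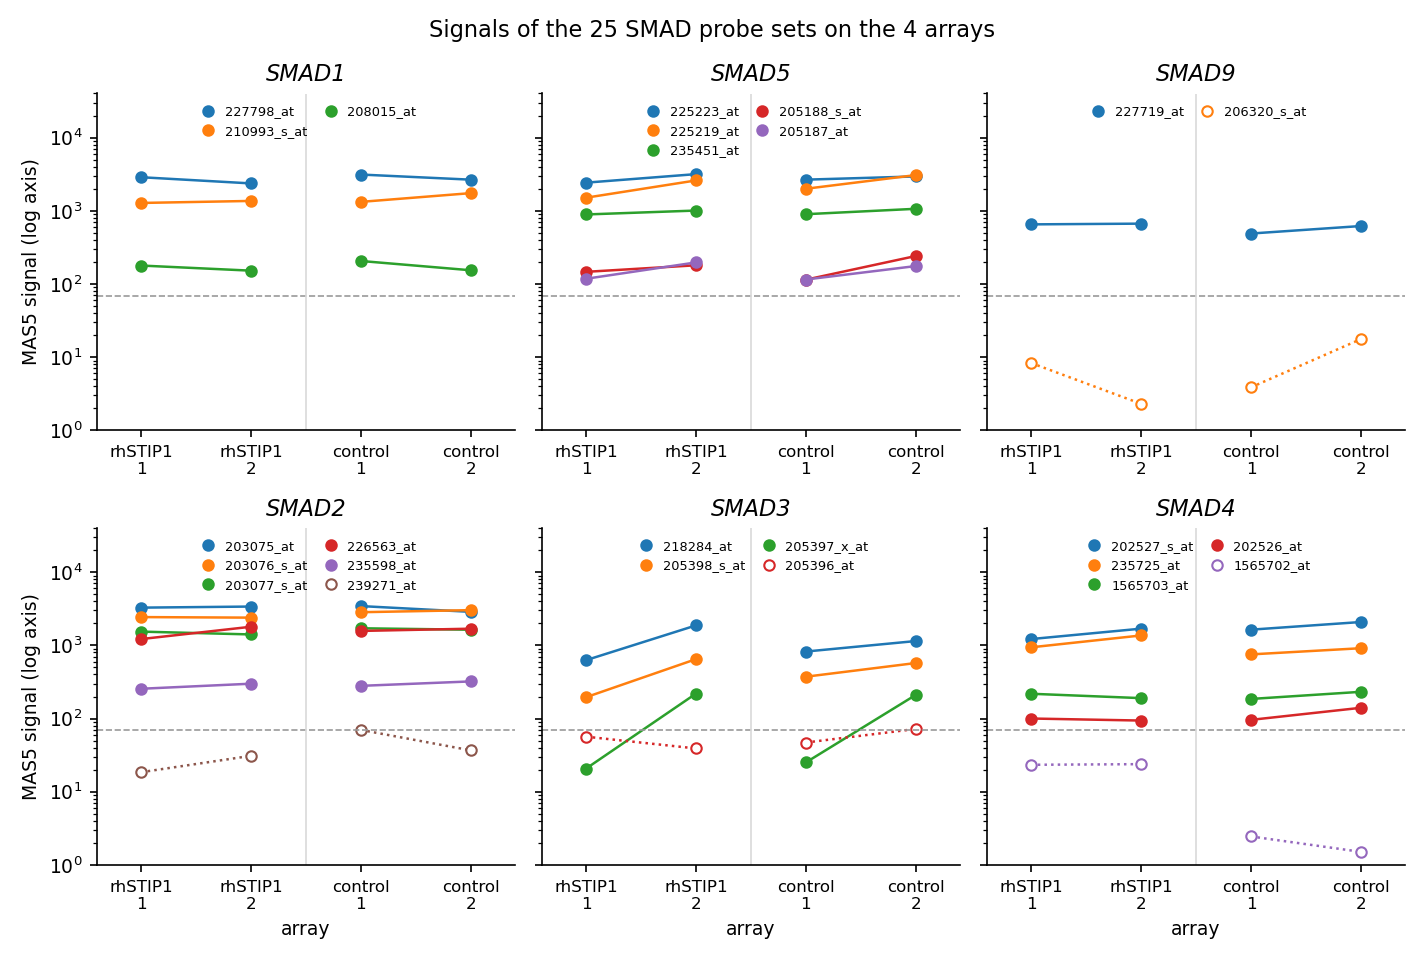
Signal of each of the 25 probe sets (log axis, MAS5 units) on rhSTIP1 arrays 1 and 2 and control arrays 1 and 2, in 1 panel for each gene. Lines join the arrays of 1 group, open symbols with dotted lines are the 4 probe sets with a mean under the dashed level of 69.4, and the SMAD3 panel shows the widest spread between arrays of the same group.

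Among the substrates of BMP receptors, SMAD1 gave overlapping signals in both groups on all 3 of its probe sets. Its brightest, 227798_at, had 2872 and 2364 with rhSTIP1 and 3125 and 2660 in controls. The groups overlapped, with rhSTIP1 array 1 above control array 2. The log2 fold change was −0.14 ± 0.23 (standard error, n = 2 each, limma over all genes, adjusted p = 0.999), with a 95% interval from −0.69 to 0.40. The probe set 210993_s_at had 1278 and 1363 with rhSTIP1 and 1322 and 1741 in controls, −0.20 ± 0.26. The third, 208015_at, was dimmer, at 178 and 152 with rhSTIP1 and 206 and 154 in controls, −0.10 ± 0.31. All 3 lay below 0, between −0.20 and −0.10, and the groups overlapped on each.

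SMAD5, which with SMAD1 carries most BMP signals in many cell types, was measured by 5 probe sets. The brightest, 225223_at, had 2422 and 3167 with rhSTIP1 and 2661 and 2944 in controls. The control arrays lay inside the range of the rhSTIP1 arrays, and the log2 fold change was −0.02 ± 0.24 with a 95% interval from −0.57 to 0.54 (limma, adjusted p = 0.999). A second bright probe set, 225219_at, had 1509 and 2597 with rhSTIP1 and 1999 and 3071 in controls, −0.32 ± 0.34, so that array 2 of each group was high and array 1 low. Its value was −0.71 when rhSTIP1 array 2 was left out and 0.07 when rhSTIP1 array 1 was. The probe set 235451_at was the steadiest, at 890 and 1007 with rhSTIP1 and 898 and 1064 in controls, −0.04 ± 0.26. The dimmer 205188_s_at (146 and 180 with rhSTIP1, 114 and 241 in controls) and 205187_at (118 and 197 with rhSTIP1, 115 and 176 in controls) had −0.04 ± 0.39 and 0.09 ± 0.38. Under median centring of the arrays, 225223_at, 235451_at and 205188_s_at turned to small positive values of 0.04, 0.01 and 0.02.

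SMAD9, the third substrate of BMP receptors and itself known as a BMP target gene, was the only member gene whose rhSTIP1 arrays both exceeded the controls on its brightest probe set. That probe set, 227719_at, had 652 and 667 with rhSTIP1 and 489 and 618 in controls. The rhSTIP1 arrays were close to each other and the nearest control lay just below them, at 618. The log2 fold change was 0.26 ± 0.25 or 1.19-fold, with a 95% interval from −0.32 to 0.83 (limma, adjusted p = 0.999). It was 0.09 without control array 1, the lowest value, and 0.42 without control array 2. The second SMAD9 probe set, 206320_s_at, had only 8.31 and 2.31 with rhSTIP1 and 3.87 and 17.6 in controls, too dim to show agreement or disagreement. The mean of both probe sets, −0.02, gives this dim one equal weight and so does not bear on the sign of SMAD9. By accession alone, 206320_s_at is annotated to a RefSeq transcript of SMAD9 and 227719_at to another accession. The brightest probe sets of SMAD1, SMAD5 and SMAD2 are also annotated to other accessions.

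SMAD2, the more widely expressed transducer of activin and TGF-beta, was represented by 6 probe sets, of which 5 were tested. The brightest, 203075_at, had 3274 and 3388 with rhSTIP1 and 3439 and 2868 in controls, a log2 fold change of 0.08 ± 0.22 with a 95% interval from −0.43 to 0.60 (limma, adjusted p = 0.999). The rhSTIP1 arrays lay between the control arrays. By contrast, 203076_s_at had 2433 and 2391 with rhSTIP1 and 2836 and 3026 in controls, −0.28 ± 0.22. The arrays of each group were close to each other here and the groups were apart. Likewise 203077_s_at had 1540 and 1409 with rhSTIP1 and 1711 and 1635 in controls, −0.18 ± 0.24. The other tested probe sets, 226563_at (1218 and 1795 with rhSTIP1, 1574 and 1689 in controls) and 235598_at (255 and 299 with rhSTIP1, 280 and 321 in controls), had −0.14 ± 0.28 and −0.11 ± 0.27 with overlapping groups. Thus 4 of 5 tested SMAD2 probe sets were below 0, and none passed (adjusted p = 1.00, limma over probe sets). The mean over all 6 probe sets, 1 of them dim (239271_at, at 18.5 and 31.0 with rhSTIP1 and 69.9 and 36.8 in controls), gave −0.23 ± 0.22. It gives this dim probe set, at −0.74, the same weight as the others, so it is not separate evidence on direction.

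SMAD3, the DNA-binding partner of SMAD2 in TGF-beta signalling, varied most of the members between the rhSTIP1 arrays, on each tested probe set. Between controls only its 205397_x_at stood out, at 8.36-fold. There 218284_at differed 1.39-fold and 205398_s_at 1.54-fold, against 2.11-fold for SMAD5 205188_s_at. The brightest SMAD3 probe set, 218284_at, had 628 and 1874 with rhSTIP1 and 823 and 1145 in controls. Both controls lay inside the range of the rhSTIP1 arrays, the lower and the higher of which differed 2.98-fold. The log2 fold change was 0.16 ± 0.48, with a 95% interval from −0.95 to 1.27 (limma, adjusted p = 0.999), and it was −0.61 without rhSTIP1 array 2 and 0.94 without rhSTIP1 array 1. The probe set 205398_s_at had 196 and 648 with rhSTIP1 and 373 and 573 in controls, −0.35 ± 0.51, and so had the same order of arrays with an opposite sign. The widest gap was on 205397_x_at, at 20.8 and 220 with rhSTIP1 and 25.2 and 210 in controls, −0.05 ± 0.99. On all 3 tested probe sets array 2 was above array 1 in both groups, whereas the dim 205396_at did not follow (56.5 and 39.0 with rhSTIP1, 47.0 and 72.0 in controls).

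SMAD4, the partner shared by both branches, had bright probe sets with opposite signs. Its brightest probe set, 202527_s_at, had 1219 and 1690 with rhSTIP1 and 1637 and 2083 in controls, a log2 fold change of −0.36 ± 0.27 with a 95% interval from −0.99 to 0.27 (limma, adjusted p = 0.999). The groups overlapped, rhSTIP1 array 2 lying above control array 1. The value was −0.59 without rhSTIP1 array 2 and −0.13 without rhSTIP1 array 1. The second, 235725_at, had 940 and 1365 with rhSTIP1 and 752 and 914 in controls, 0.44 ± 0.29 with a 95% interval from −0.23 to 1.12 (limma, adjusted p = 1.00). Here both rhSTIP1 arrays lay above both controls. Its value was 0.18 when rhSTIP1 array 2 was left out and 0.71 when rhSTIP1 array 1 was. Of the dimmer probe sets, 1565703_at had 218 and 190 with rhSTIP1 and 185 and 232 in controls, −0.02 ± 0.29, and 202526_at had 100.1 and 93.9 with rhSTIP1 and 95.9 and 140 in controls, −0.23 ± 0.36. The remaining probe set, 1565702_at, was listed at 23.3 and 23.8 with rhSTIP1 and at 2.45 and 1.51 in controls. All 4 of those signals lay under the level for testing, and no fold is given for them. By accession alone, the annotated source of 202527_s_at is a RefSeq transcript of SMAD4, and the other 4 probe sets were annotated to other accessions. No probe was placed on a transcript, so where each probe set lies in the gene is not given here. The direction of SMAD4 as a gene therefore depended on the probe set. It was 0.44 ± 0.27 where only probe sets without a suffix were used, which is 235725_at again. The mean of all 5, 0.19 ± 0.24, gives the dim 1565702_at the same weight as the others, so neither value is separate evidence on direction.

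**Figure D2:**
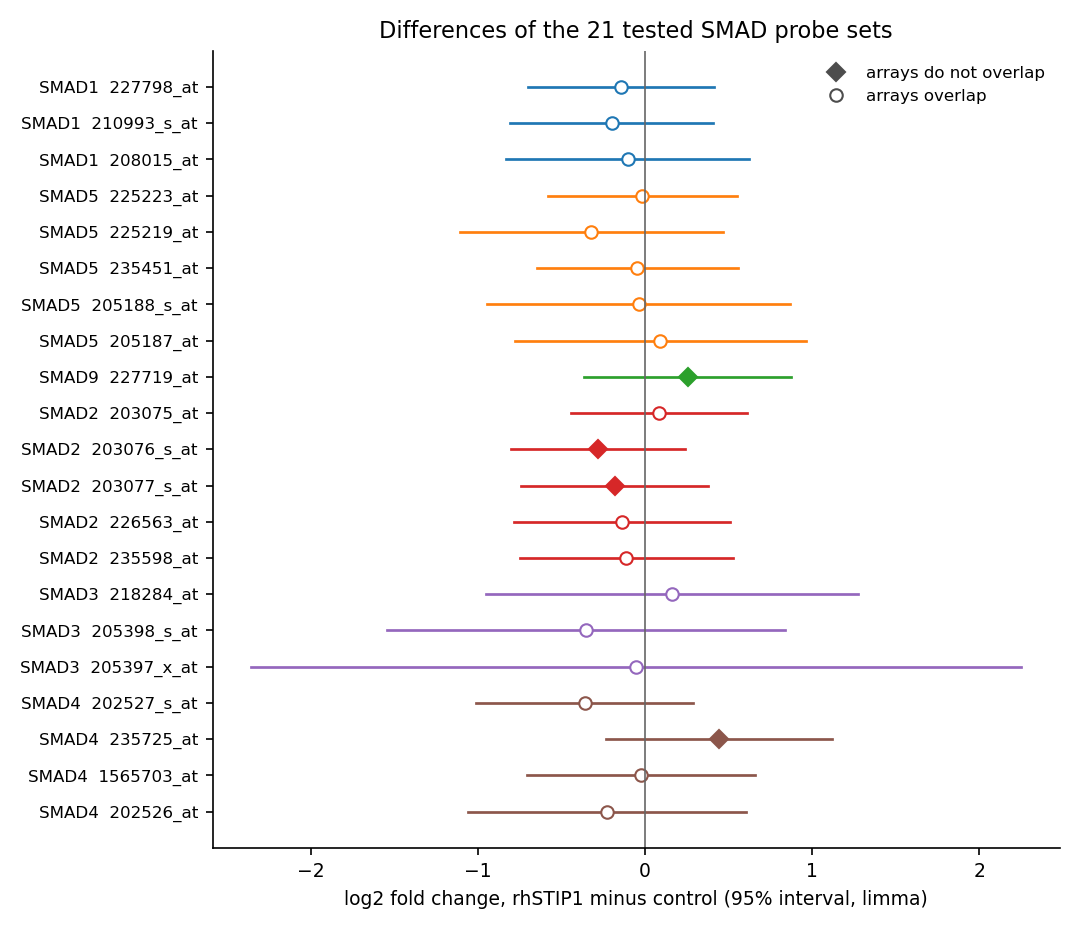
Log2 fold change (rhSTIP1 minus control, on the log2(signal + 16) scale) of the 21 tested probe sets with 95% intervals from limma. Filled diamonds are the 4 probe sets whose groups did not overlap, and all 21 intervals include 0.

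To compare probe sets of 1 gene directly, each tested probe set was divided by the brightest of its gene on the same array, and the log2 ratio was compared between groups by limma over all 10416 such ratios. A ratio within an array cancels the array's scaling and shows that 2 probe sets differed unequally, not which of them differed. Cross-hybridisation of probes was not tested. This comparison was added after the values had been seen. The ratio of SMAD4 235725_at to 202527_s_at was 0.771 and 0.808 with rhSTIP1 and 0.459 and 0.439 in controls. The arrays of each group were nearly equal and the groups were far apart, although both probe sets varied between arrays of a group. The log2 ratio differed by 0.80 ± 0.26 or 1.74-fold, with a 95% interval from 0.21 to 1.40 and an unadjusted p of 0.0139 (limma), ranked 15 among the 10416 ratios. Over all ratios it did not pass (adjusted p = 1.00), and 0 of 10416 (0%) were called. On simulated data this test found only 1 of 67 planted 2-fold changes, so a difference of this size would rarely pass. At an unadjusted p under 0.05 there were 149 ratios (1.43%), and 5.83% of all ratios did not overlap and differed by at least 1.5-fold. With 1 array left out the difference ran from 0.77 to 0.84, and it was 0.77 without rhSTIP1 array 2.

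Of the 15 ratios of the members, the groups did not overlap for 4, 1 higher and 3 lower, against 24.9% of all ratios (9.54% higher and 15.4% lower), and SMAD4 235725_at was the only one with an unadjusted p under 0.05. SMAD2 203076_s_at stood at 0.743 and 0.706 of 203075_at with rhSTIP1 and at 0.824 and 1.06 in controls, −0.36 ± 0.22. SMAD2 203077_s_at stood at 0.470 and 0.416 of the same probe set with rhSTIP1 and at 0.498 and 0.570 in controls, −0.27 ± 0.25. For SMAD3 the ratio of 205398_s_at to 218284_at was 0.312 and 0.346 with rhSTIP1 and 0.453 and 0.501 in controls, −0.51 ± 0.29. The large spread of SMAD3 between arrays was shared by these probe sets and was absent from their ratio. The ratios of the SMAD1 and SMAD5 probe sets all overlapped, with differences between −0.31 and 0.11.

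**Figure D3:**
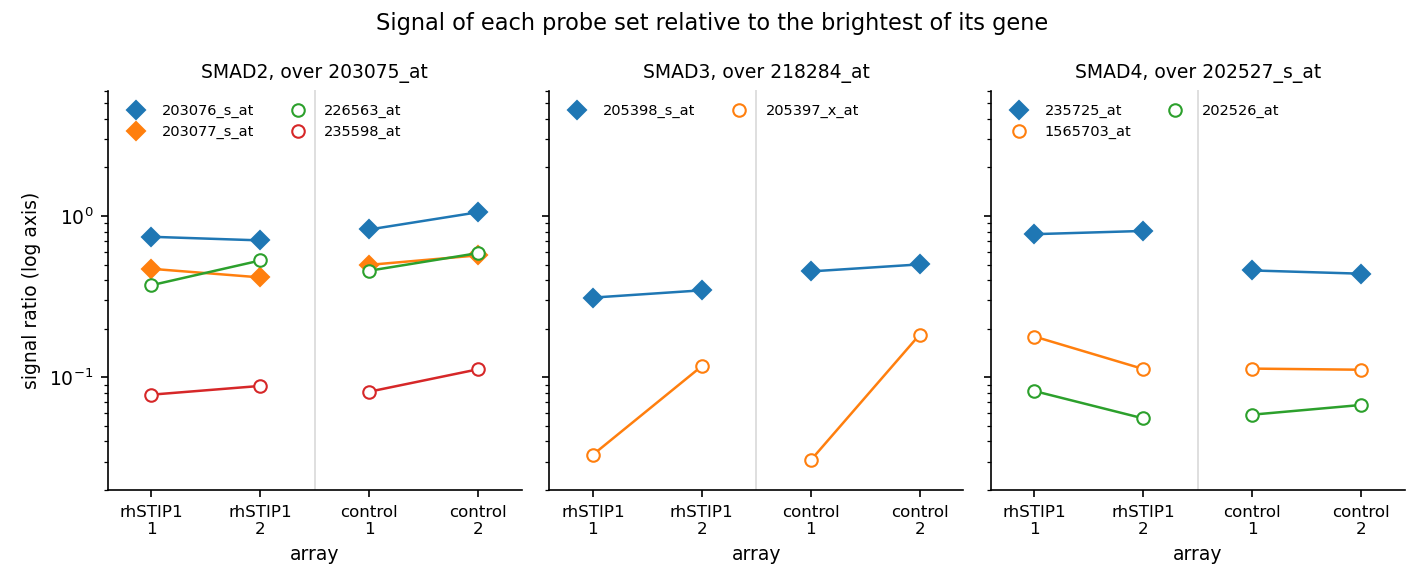
Signal of each tested probe set of SMAD2, SMAD3 and SMAD4 divided by that of the brightest probe set of the same gene on the same array (log axis). Filled diamonds are ratios whose groups did not overlap, and SMAD4 235725_at stood at 0.771 and 0.808 with rhSTIP1 and at 0.459 and 0.439 in controls.

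Genes whose 4 array values ran most like those of a member were named by the distance between log2 values centred on each gene. With only 4 arrays many of the 12296 genes lie close to any profile, so these are descriptions. SMAD9 227719_at was closest to NINL (distance 0.0096) and SBNO1 (0.0272), and SMAD5 to CHRD, a secreted BMP antagonist (0.0111), and the glycolytic enzyme HK1 (0.0198). SMAD1 was closest to YBX2 (0.0145) and ZNHIT3 (0.0176), and SMAD2 to SNAP47 (0.0206) and TCEAL8 (0.0209). SMAD4 was closest to IRF2BP2 (0.0641) and HSBP1L1 (0.0656). The nearest genes to SMAD3, DIXDC1 (0.134) and the splicing factor SRSF6 (0.172), were farther away. The log2 values of SMAD3 also spanned the widest range, 1.55, against 0.26 for SMAD2 and 0.77 for SMAD4. Distances were not scaled to that range, so they do not show that SMAD3 was less well matched.

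The genes around the members were read from 10 lists of 125 symbols, of which 116 had a probe set of their own and 106 were tested. Limma called 0 of the 106 (0% of all genes), 9 had an unadjusted p under 0.05 (3.68% of all genes), and the groups did not overlap for 37 (28.9% of all genes). All 9 of them were higher with rhSTIP1, and all 9 stood in the lists of SMAD1/5 or SMAD2/3 target genes. The lists were chosen with earlier results of these data known, so their counts describe the arrays and support no direction.

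The inhibitory SMADs, which block receptor-regulated SMADs at the receptor or at SMAD4, were both higher in both rhSTIP1 arrays, as were 14% of all genes tested. SMAD7 had 1804 and 1615 with rhSTIP1 and 695 and 564 in controls, 1.42 ± 0.24 (limma, adjusted p = 0.528). SMAD6 had 540 and 339 with rhSTIP1 and 331 and 305 in controls, 0.41 ± 0.30. The value of SMAD6 was 0.09 without rhSTIP1 array 1 and 0.74 without rhSTIP1 array 2. Neither gene passed over all genes in the fit without a replicate block.

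Of 9 tested type I and type II receptors, 7 had a log2 fold change above 0 and 2 below, with a median of 0.15 against 0.02 over all genes, and 0 had an unadjusted p under 0.05. TGFBR1, the type I receptor that phosphorylates SMAD2 and SMAD3, had 2370 and 2277 with rhSTIP1 and 1670 and 1982 in controls, 0.35 ± 0.23, on its brightest probe set. The sign of TGFBR1 also depended on the probe set, at −0.36 for the mean of its probe sets. ACVR1C, the receptor ALK7, had 152 and 108 with rhSTIP1 and 64.1 and 89.7 in controls, 0.64 ± 0.38. The BMP receptors ACVR1 and BMPR1B had 0.19 ± 0.30 and 0.17 ± 0.28 with overlapping groups. Both tested coreceptors, TGFBR3 (0.56 ± 0.33) and RGMB (0.18 ± 0.27), were above 0 with overlapping groups.

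Proteins that hold SMADs at receptors or carry them across the nuclear envelope had a median of 0.03 over 12 tested genes, 8 above 0 and 4 below. PMEPA1, a membrane protein that binds SMAD2 and SMAD3 and is induced by TGF-beta, had 2307 and 1380 with rhSTIP1 and 1512 and 812 in controls, 0.68 ± 0.37 with overlapping groups. ZFYVE9, the anchor known as SARA that presents SMAD2 and SMAD3 to the receptor, had 0.22 ± 0.30. The nucleoporin NUP214 had 0.20 ± 0.29, and RANBP3, which takes part in export of SMAD2 and SMAD3, had −0.16 ± 0.23.

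Ubiquitin ligases and deubiquitinases of the pathway lay around 0, with a median of 0.00 over 15 tested genes, 8 above 0 and 7 below, and a range from −0.38 to 0.27. RNF111, the ligase Arkadia that removes inhibitory SMAD7 and SKIL, had 1402 and 1889 with rhSTIP1 and 2073 and 2168 in controls, −0.38 ± 0.25. SMURF2, a ligase for receptor-regulated SMADs, had 2586 and 2642 with rhSTIP1 and 2010 and 2320 in controls, 0.27 ± 0.22. FBXW7 and SKP2, substrate receptors of SCF ligases, had 0.27 ± 0.24 and 0.26 ± 0.24.

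Phosphatases and linker kinases had a median of −0.04 over 10 tested genes, 3 above 0 and 7 below. CDK8, which phosphorylates the linker of nuclear SMADs, had 790 and 763 with rhSTIP1 and 827 and 1089 in controls, −0.28 ± 0.25. The phosphatases CTDSP2 (0.16 ± 0.21), CTDSP1 (−0.16 ± 0.38) and PPM1A (−0.10 ± 0.24) differed by less than their standard errors.

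Corepressors were above 0 for 7 of 8 tested genes, with a median of 0.12. SKIL, which holds SMAD complexes inactive, had 2856 and 3299 with rhSTIP1 and 2377 and 1728 in controls, 0.59 ± 0.25 (unadjusted p = 0.0475 and adjusted p = 0.999, limma). MECOM, the locus of the SMAD3 repressor EVI1, was the exception, at 6735 and 9666 with rhSTIP1 and 10869 and 11698 in controls, −0.48 ± 0.22. TGIF1 had 0.34 ± 0.27 and SKI 0.32 ± 0.29, both with overlapping groups.

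Coactivators and DNA-binding partners were split evenly, 10 above 0 and 10 below, with a median of 0.02. The acetyltransferase EP300, a coactivator of SMAD complexes, had 1091 and 1105 with rhSTIP1 and 1324 and 1397 in controls, −0.30 ± 0.23. KAT2B (0.30 ± 0.26), MED15 (−0.26 ± 0.26) and FOXO1 (0.38 ± 0.40) had overlapping groups.

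The 18 tested SMAD1/5 targets, which include SMAD6, SMAD7 and SMAD9, had a median of 0.33, with 12 above 0 and 6 below, and 7 with an unadjusted p under 0.05. Over all genes tested 53.2% were above 0 and 3.68% had such a p. The 4 with the smallest p were HES1 (2.45 ± 0.24), ID3 (4.55 ± 0.55), ID4 (1.36 ± 0.21) and ID2 (1.71 ± 0.26), and the smallest adjusted p was 0.0689, for HES1 (limma). The 17 tested SMAD2/3 targets had a median of 0.45, with 15 above 0 and 2 below, and 3 with an unadjusted p under 0.05, SMAD7, JUNB (1.08 ± 0.23) and SKIL. CCN2 had the next smallest p in that list, at 719 and 3196 with rhSTIP1 and 1096 and 257 in controls, 1.48 ± 0.79 with overlapping groups. It was 0.41 without rhSTIP1 array 2 and 2.54 without rhSTIP1 array 1. The difference between the members and these lists was not tested. Besides TGFBR1, the signs of BMPR1B, SKI, NUP214 and PPM1A also turned with the choice of probe sets.

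**Figure D4:**
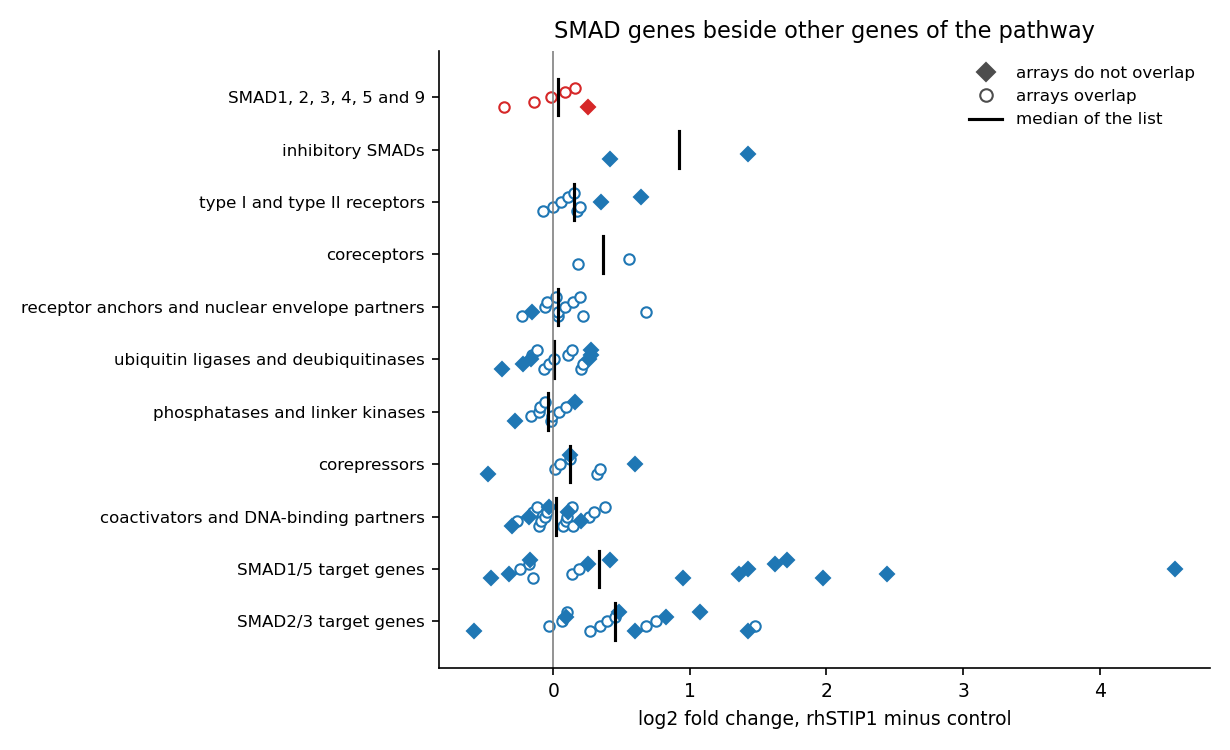
Log2 fold change (rhSTIP1 minus control) of the 6 members on their brightest probe sets, in the top row, and of the tested genes of 10 pathway lists, with the median of each list as a vertical line. The members lie between −0.36 and 0.26, while ID3 reached 4.55 in the list of SMAD1/5 targets, which shares SMAD6, SMAD7, SMAD9 and RUNX2 with other rows.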

How the data were processed

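Per the labels' protocols, RNA of SKOV3 cells was isolated with TRIZOL and carried a biotin label on the arrays. The authors deposited linear signal intensities. The submitters' processing notes name MAS5 and Affymetrix Expression Console 1.1. MAS5 treats each array separately, and the mean after trimming 2% at each end was 500.1 on every array of the deposited table. Detection calls were not used here, so low signals may be background. Of 54675 probe sets, 62 were controls. The platform annotation gave 41091 a single symbol, 1801 several symbols and 11721 no symbol.

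Values were taken as log2(signal + 16), with no further scaling, and a fold change on that scale understates the change of dim genes. Features with a mean signal of at least 69.4, the median, were tested with lmFit and eBayes of limma 3.58.1 (R 4.3.3) with an intensity trend, two-sided, with Benjamini-Hochberg adjustment over 12296 genes, 27307 probe sets or 10416 ratios. The ± values are standard errors, with 2 residual degrees of freedom. In the main fits the shared spread added 5.56 over genes, 5.78 over probe sets and 7.08 over ratios. For any 1 gene, exact permutation of 2 against 2 arrays reaches at best p = 0.333 (two-sided), and the number of arrays limits the precision. On simulated data with 12296 genes the test found 5 of 67 planted 2-fold changes, 45 of 67 of 4-fold and 63 of 66 of 16-fold. It also called 4 genes without a planted change. Over probe sets the test found 5 of 67 planted 2-fold changes, 42 of 67 of 4-fold and 66 of 66 of 16-fold, with 13 false calls. For ratios the numbers were 1 of 67, 30 of 64 and 66 of 66, with 7 false calls. The simulated arrays were drawn independently of each other, so these shares need not hold for the deposited arrays. There ID3, 23.4-fold higher, was not called (adjusted p = 0.19, limma).

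The members, lists and rules were chosen with earlier results of these data known. Named list genes are up to 4 tested genes of each list with the smallest unadjusted p, and the genes most like a member are the nearest 2. Alternatives covered the pseudocount, filter, scaling, probe set choice, replicate block, eBayes settings and leaving out each array.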

Additional observations from a re-analysis of the deposited data

How the results depend on the processing

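No member gene, member probe set or member ratio passed limma's adjusted test under any setting run. The sign of several did change. Under median centring the log2 fold change of SMAD5 was 0.040, as was that of its probe set 225223_at, and 235451_at, 205188_s_at, SMAD3 205397_x_at and SMAD4 1565703_at had 0.010, 0.018, 0.0027 and 0.031. Quantile normalization gave 0.0068 for SMAD4 1565703_at, 0.013 for the ratio of SMAD5 235451_at and 0.0060 for that of 205188_s_at. When all probe sets of a gene were averaged, SMAD9 had −0.019, SMAD2 −0.23, SMAD3 −0.12, SMAD4 0.19, TGFBR1 −0.36, BMPR1B −0.18 and SKI −0.022, and with probe sets without a suffix SMAD4 had 0.44, TGFBR1 −0.67, NUP214 −0.25 and PPM1A 0.0069. Member genes whose groups did not overlap were 2 of 6 under median centring (29.4% of all genes), with the mean of probe sets (29.8%) and without suffixed ones (29.2%). Ratios at least 1.5-fold apart with no overlap were 346 with a pseudocount of 64, 3094 without a filter and 99 where the filter stood at percentile 70. Genes called were 1 with that stricter filter and 2 with robust eBayes.

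The labels do not say what a replicate number marks, so no pairing was assumed. Deviations of same-numbered arrays from their group means correlated at 0.36 over 12296 genes. The log2 values correlated at 0.967 and 0.979 for same-numbered arrays and at 0.967 and 0.964 within the rhSTIP1 and control groups. Arrays that differed in both group and number had 0.969 and 0.952. With the replicate block limma called 247 genes, 261 probe sets and 1 ratio, none of them a member (smallest adjusted p of a member gene 0.657). With the block, the named target genes called were ID3 (adjusted p = 8.8e-12), HES1 (2.7e-07), ID2 (3.0e-05), ID4 (7.1e-05), SMAD7 (3.7e-04) and JUNB (0.0048). The block leaves fewer residual degrees of freedom than the fit without it. These p-values therefore rest more on the spread shared over genes than on the replicates of each gene.

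The cause of these changes was not tested, except that filters and left-out arrays change by construction how many values are compared.

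Leaving out 1 array at a time compares 1 array with 2, the lone array being taken to vary like the others. Limma then called 0 to 6 genes (3 without control array 1 and 6 without control array 2), 1 to 7 probe sets and 0 to 7 ratios, while the groups did not overlap for 3 to 4 member genes (59.3% to 67.2% of all genes), for 10 to 14 member probe sets (60.5% to 66.3% of all probe sets) and, at 1.5-fold or more, for 1512 to 1897 ratios. The sign depended on 1 array for these genes, with their lowest and highest log2 fold changes: ACVR1 −0.17 to 0.56, BMPR1B −0.051 to 0.39, CTDSP1 −0.67 to 0.34, FOXO1 −0.28 to 1.04, NUP214 −0.078 to 0.47, PPM1A −0.33 to 0.12, RGMB −0.0021 to 0.36, SKI −0.042 to 0.69, SMAD2 −0.046 to 0.21, SMAD3 −0.61 to 0.94, SMAD5 −0.21 to 0.18 and ZFYVE9 −0.10 to 0.53. It did so for these member probe sets besides the brightest: SMAD1 208015_at −0.30 to 0.089, SMAD2 226563_at −0.42 to 0.14, SMAD3 205397_x_at −1.39 to 1.29, SMAD3 205398_s_at −1.18 to 0.47, SMAD4 1565703_at −0.17 to 0.13, SMAD4 202526_at −0.47 to 0.013, SMAD5 205187_at −0.24 to 0.43, SMAD5 205188_s_at −0.53 to 0.45, SMAD5 225219_at −0.71 to 0.067 and SMAD5 235451_at −0.17 to 0.075. It did so for these ratios to the brightest probe set: SMAD1 208015_at −0.036 to 0.12, SMAD1 210993_s_at −0.37 to 0.26, SMAD2 226563_at −0.48 to 0.029, SMAD2 235598_at −0.42 to 0.030, SMAD3 205397_x_at −1.21 to 0.78, SMAD4 202526_at −0.14 to 0.41, SMAD5 205187_at −0.10 to 0.31, SMAD5 205188_s_at −0.44 to 0.40 and SMAD5 235451_at −0.13 to 0.075.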
